A study of Mus musculus with 6 samples.

Results

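The 28 genes described here encode enzymes and regulators that build cholesterol and fatty acids. They were picked by name from the known routes of synthesis, with earlier results of these data known, and their rows were read from a total RNA count table of 42450 genes. All 28 are protein coding, all 28 were found in the table, and all 28 passed the filter on low counts that left 18905 genes for testing. The list does not hold every enzyme of these routes.

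The libraries hold total RNA of mouse embryonic stem cells (mESC) of the male line E14tg2a.4 (WT, 3 libraries) and of Srrm2+/- cells (3 libraries), a derivative of E14tg2a.4 that carries a gene-trap truncation in 1 allele of Srrm2. Srrm2 encodes a splicing factor of nuclear speckles. The Srrm2+/- line is 1 clone (CG0630). Per the study's methods, WT stocks were frozen at higher passage numbers than Srrm2+/- stocks, so genotype, clone and passage cannot be told apart. Cells of both lines were kept on gelatin with leukaemia inhibitory factor (LIF) and moved to serum-free medium before harvest. The study's methods give 1 growth time from seeding to harvest for the total RNA of both lines. For the time in serum-free medium they give several values, without assigning them to single libraries. A difference in that time between libraries was not tested. The replicates were thawed from separately frozen batches of each line. Library totals ran from 54151433 to 69933421 estimated counts. Srrm2 itself fell from 95.7 ± 3.94 normalized CPM (counts scaled to library size) in WT to 59.3 ± 3.02 CPM in Srrm2+/- (SD, n = 3; edgeR adjusted p 2.38e-05), without overlap of the libraries.

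Cholesterol is built from acetyl-CoA through mevalonate, the isoprenoid pyrophosphates, squalene and lanosterol. Long-chain fatty acids are built from the same acetyl-CoA through malonyl-CoA. Transcription of both sets of enzymes is raised by the SREBP factors, which the endoplasmic reticulum holds back while sterol is plentiful and which bind sterol regulatory elements in promoters, often beside boxes for NF-Y and Sp1. Pluripotent stem cells divide fast and use both routes to make membrane.

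Promoter sequence was read for 22 of the 28 genes (27 windows of 250 bases before to 50 bases after a start site, RefSeq, GRCm38.p6), and 4 motifs were searched on both strands. No window was matched for Fdps, Fdft1, Sqle, Stard4, Scd1 or Scd2. The sterol regulatory element-like letters TCACNCCA were present in 3 of 22 genes, Hmgcs1, Srebf2 and Msmo1, and in 4.97% of the 27025 genes with a window. The NF-Y box CCAAT was present in 19 of 22 genes (86.4%), against 41.1% of all genes, and the GC box GGGCGG in 18 of 22 (81.8%), against 38.2%. The E-box CACGTG was present in 4 of 22 (18.2%), against 8.09%. A match is a description of the letters and not evidence of binding, and the comparison was not tested.

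The stretches below are shown because they carry matches of genes on which the results turn. They read 5′ to 3′ on the strand of the gene, and capitals mark TCACNCCA and CCAAT, the latter also in its reverse form ATTGG. No annotated exon overlaps them, and further CCAAT matches of Hmgcs1 and Ebp lie outside them. The first pair holds both marked motifs. The next pair belongs to genes that rose strongly and hold, of the marked motifs, only the NF-Y box. The last stretch belongs to Ebp, the gene that fell most.
Hmgcs1, chr13:119690184-119690330, plus strand: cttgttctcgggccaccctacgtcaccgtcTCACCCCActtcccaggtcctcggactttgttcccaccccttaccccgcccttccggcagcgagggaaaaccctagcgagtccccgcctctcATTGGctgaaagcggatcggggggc
Srebf2, chr15:82147077-82147144, plus strand: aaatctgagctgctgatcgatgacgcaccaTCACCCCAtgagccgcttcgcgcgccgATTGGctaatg
Mvd, chr8:122443443-122443532, minus strand: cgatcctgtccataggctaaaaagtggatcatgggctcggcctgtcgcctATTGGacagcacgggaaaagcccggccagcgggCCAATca
Fasn, chr11:120824568-120824657, minus strand: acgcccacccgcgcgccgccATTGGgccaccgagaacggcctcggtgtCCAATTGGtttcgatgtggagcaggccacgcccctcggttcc
Ebp, chrX:8193533-8193622, minus strand: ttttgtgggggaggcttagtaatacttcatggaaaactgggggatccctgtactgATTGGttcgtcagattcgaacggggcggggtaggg
In the Fasn stretch the last capitals are a CCAAT and an ATTGG that overlap. The sterol regulatory element-like match begins 137 bases before the start site in Hmgcs1, 162 bases before it in Srebf2 and 177 bases before it in Msmo1 (TCACTCCA).

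In Srrm2+/- cells, 16 of the 28 genes rose (57.1%) and 3 fell (10.7%), at an edgeR adjusted p under 0.05. Of all genes tested, 25.3% were called in either direction, 13.6% as higher and 11.7% as lower. Among the 8853 genes within the members' range of expression, 15.9% were higher and 17.6% lower. Since the 28 genes were chosen with earlier results known, this contrast with all genes is a description and not independent evidence. For the 28 genes the median log2 fold change was 0.20, against -0.0025 over all tested genes, and the members ranged from -0.75 for Ebp to 0.62 for Fasn. The rises were small in size. The 16 increases ran from 12.9% to 54.1% with a median of 23.1%, a median log2 fold change of 0.30. Over all 2573 higher genes, which were not matched to the members in expression level, the median was 0.59. All 16 had every Srrm2+/- library above every WT library, as did 21.4% of all genes tested. The 3 genes that fell, and also Elovl6, had every Srrm2+/- library below every WT library, as did 20.0% of all genes tested. Without Srrm2+/- replicate 3, 10 members were called higher and 3 lower. Calls over all genes, in either direction, also fell in this setting, from 4781 to 3515. The share of higher genes among these calls was 53.82% with all libraries and 55.65% without Srrm2+/- replicate 3. In bulk RNA, a change in the share of cells that express a gene and a change in RNA per cell cannot be told apart.

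**Figure D1:**
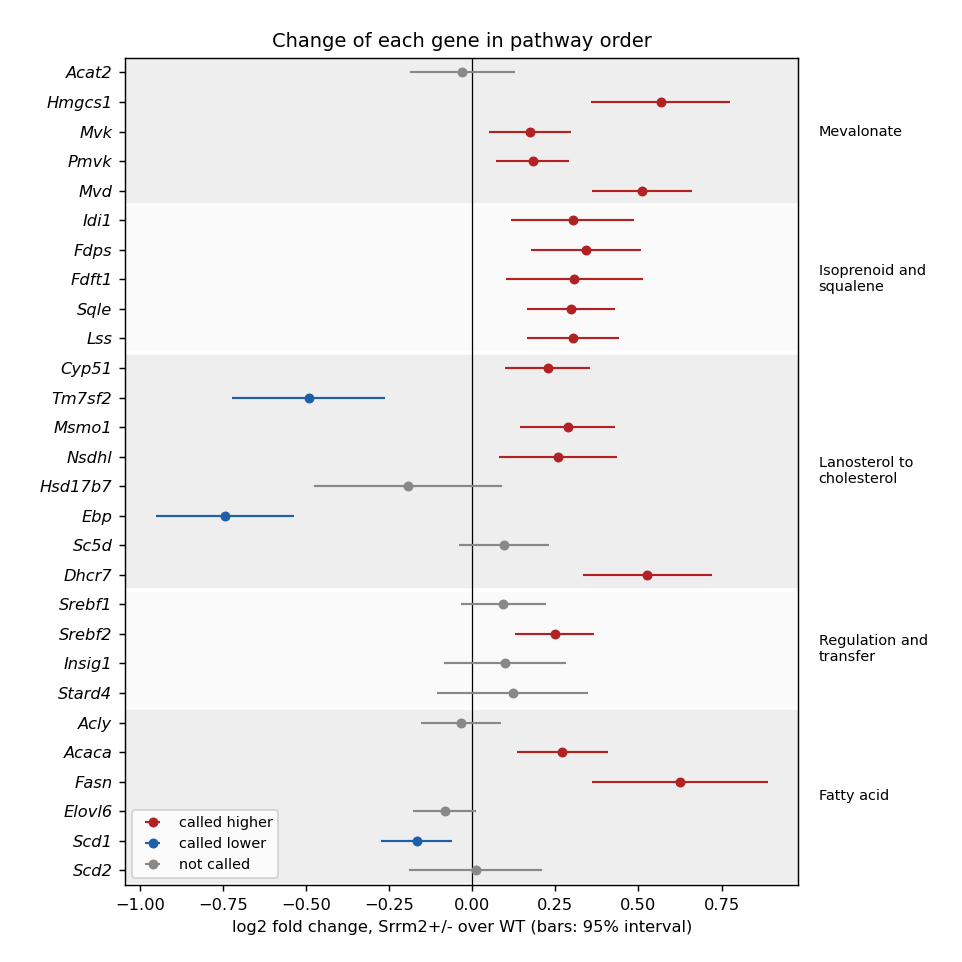
The log2 fold change of each of the 28 genes (Srrm2+/- over WT, 3 libraries each) is drawn with its 95% interval from the edgeR fit, in pathway order. All 5 genes from Idi1 to Lss lie close to 0.30, whereas the genes from lanosterol to cholesterol spread from -0.75 for Ebp to 0.53 for Dhcr7.

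The mevalonate group holds the enzymes that turn acetyl-CoA into isopentenyl pyrophosphate. Of its 5 genes, 4 rose and 1 did not pass the test, with a median log2 fold change of 0.18. Hmgcs1 (chromosome 13, 119690379 to 119708260, plus strand), the HMG-CoA synthase, gave 197, 181 and 178 CPM in WT and 234, 278 and 310 CPM in Srrm2+/-. All Srrm2+/- libraries lay above all WT libraries, and the increase was 48.1% (edgeR log2 fold change 0.57 with an SE of 0.09, adjusted p 0.00216). Mvd (chromosome 8, 122433601 to 122443422, minus strand), the decarboxylase that makes isopentenyl pyrophosphate, gave 18.1, 18.8 and 19.9 CPM in WT and 25.8, 25.8 and 29.3 CPM in Srrm2+/-. The groups were well separated, and the increase was 42.4% (edgeR log2 fold change 0.51 with an SE of 0.07, adjusted p 0.000633).

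The kinases that act between them had smaller log2 fold changes. Mvk, mevalonate kinase, rose from 17.2 ± 0.773 to 19.4 ± 0.279 CPM (SD, n = 3; edgeR log2 fold change 0.17 with an SE of 0.05, adjusted p 0.0450). Pmvk, phosphomevalonate kinase, rose from 39.9 ± 1.51 to 45.2 ± 1.67 CPM (SD, n = 3; edgeR log2 fold change 0.18 with an SE of 0.05, adjusted p 0.0247). Both calls lay near the threshold. Mvk was not called without any one of the 6 libraries (edgeR adjusted p 0.0503 to 0.140), nor by DESeq2 (adjusted p 0.103) or limma voom (adjusted p 0.0570), and lost its call under 11 of 14 alternatives in all. Pmvk was not called without WT replicate 1 (edgeR adjusted p 0.0661), WT replicate 3 (0.0873), Srrm2+/- replicate 2 (0.0841) or Srrm2+/- replicate 3 (0.0717).

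Acat2, the cytosolic thiolase that makes acetoacetyl-CoA at the head of the route, was the exception in this group. It gave 71.5, 69.3 and 62.2 CPM in WT and 60.2, 70.0 and 68.6 CPM in Srrm2+/-. The libraries overlapped, and the 95% interval of its log2 fold change ran from -0.19 to 0.13 (edgeR adjusted p 0.801).

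The next group leads from isopentenyl pyrophosphate to lanosterol, and all 5 of its genes rose by nearly equal amounts, with log2 fold changes of 0.30 to 0.34. Fdps, which makes farnesyl pyrophosphate, gave 70.2, 71.1 and 64.5 CPM in WT and 77.3, 89.0 and 94.6 CPM in Srrm2+/- (edgeR log2 fold change 0.34 with an SE of 0.07, adjusted p 0.00889). Sqle, the squalene epoxidase and a rate-limiting enzyme of the sterol branch, gave 68.0, 63.5 and 61.9 CPM in WT and 73.8, 79.1 and 84.7 CPM in Srrm2+/- (edgeR log2 fold change 0.30 with an SE of 0.06, adjusted p 0.00596). Lss, which closes squalene epoxide into lanosterol, gave 60.7, 62.9 and 62.8 CPM in WT and 72.1, 73.4 and 84.4 CPM in Srrm2+/- (edgeR log2 fold change 0.30 with an SE of 0.06, adjusted p 0.00657). In each of these genes the lowest Srrm2+/- library stood above the highest WT library, and each kept its call under all 14 alternatives.

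Idi1 and Fdft1 had log2 fold changes of similar size but a wider spread. Idi1, the isopentenyl pyrophosphate isomerase, gave 85.8, 74.8 and 73.2 CPM in WT and 88.6, 92.8 and 107 CPM in Srrm2+/- (edgeR log2 fold change 0.30 with an SE of 0.08, adjusted p 0.0249). Fdft1, squalene synthase, gave 65.2, 66.7 and 56.4 CPM in WT and 68.2, 78.5 and 86.4 CPM in Srrm2+/- (edgeR log2 fold change 0.31 with an SE of 0.09, adjusted p 0.0359). The gap between the groups was narrow in both genes. The call of Idi1 was lost without WT replicate 2 (edgeR adjusted p 0.0803), WT replicate 3 (0.0796) or Srrm2+/- replicate 3 (0.0786). The call of Fdft1 was lost without WT replicate 1 (edgeR adjusted p 0.0597), WT replicate 3 (0.106), Srrm2+/- replicate 2 (0.0954) or Srrm2+/- replicate 3 (0.123), and also when its counts were summed with those of Ctsb, which overlaps it (0.335).

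From lanosterol to cholesterol the genes moved in both directions. Of 8 genes, 4 rose, 2 fell and 2 did not pass the test, and the median log2 fold change was 0.16. Dhcr7 (chromosome 7, 143823145 to 143848410, plus strand), a reductase of the last steps, gave 5.82, 5.99 and 5.92 CPM in WT and 8.02, 8.50 and 9.03 CPM in Srrm2+/-. The WT libraries were nearly equal, and the increase was 44.1% (edgeR log2 fold change 0.53 with an SE of 0.09, adjusted p 0.00216).

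Ebp and Tm7sf2 went the other way. Ebp (chromosome X, 8185329 to 8193512, minus strand), the sterol isomerase, gave 22.0, 27.4 and 23.1 CPM in WT and 13.3, 15.5 and 14.5 CPM in Srrm2+/-. All Srrm2+/- libraries lay below all WT libraries, and the mean dropped by 40.3% (edgeR log2 fold change -0.75 with an SE of 0.09, adjusted p 0.000464). Tm7sf2 (chromosome 19, 6062821 to 6068373, minus strand), a sterol reductase, gave 9.03, 9.24 and 7.54 CPM in WT and 5.82, 6.28 and 6.26 CPM in Srrm2+/-. Here too the groups did not overlap (edgeR log2 fold change -0.49 with an SE of 0.10, adjusted p 0.00747). The 95% intervals of Ebp (-0.95 to -0.54) and Tm7sf2 (-0.72 to -0.26) lay below 0, and that of Dhcr7 (0.33 to 0.72) lay above it. Ebp shares none of its 31-base words with other annotated transcripts, whereas Tm7sf2 shares exon sequence with its neighbour Vps51.

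The other genes that rose in this segment were Cyp51, Msmo1 and Nsdhl, which remove the methyl groups of lanosterol. Cyp51, the lanosterol demethylase, rose from 138 ± 6.45 to 162 ± 10.7 CPM (SD, n = 3; edgeR log2 fold change 0.23 with an SE of 0.06, adjusted p 0.0170). Msmo1, the methylsterol monooxygenase, rose from 76.8 ± 4.54 to 93.8 ± 6.92 CPM (SD, n = 3; edgeR log2 fold change 0.29 with an SE of 0.06, adjusted p 0.00975). Nsdhl, a sterol dehydrogenase encoded on the X chromosome like Ebp, rose from 15.2 ± 1.10 to 18.2 ± 1.47 CPM (SD, n = 3; edgeR log2 fold change 0.26 with an SE of 0.08, adjusted p 0.0411). Of these, Msmo1 was called under every alternative. Cyp51 was not called without WT replicate 2 (edgeR adjusted p 0.0593) or Srrm2+/- replicate 3 (0.0546). Nsdhl was called without Srrm2+/- replicate 1 but not without any other library (edgeR adjusted p 0.0530 to 0.143), nor by limma voom (adjusted p 0.0516).

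Hsd17b7, the ketosteroid reductase that works with Nsdhl, gave 11.0, 11.3 and 10.8 CPM in WT and 7.66, 10.9 and 10.4 CPM in Srrm2+/-. Its lower mean rested on Srrm2+/- replicate 1, and it did not pass the test (95% interval of the log2 fold change -0.48 to 0.09, edgeR adjusted p 0.304). Sc5d, a sterol desaturase, averaged 25.9 ± 0.636 CPM over WT and 27.7 ± 1.93 CPM over Srrm2+/- libraries (SD, n = 3) and did not pass the test either (95% interval -0.04 to 0.23, edgeR adjusted p 0.296).

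**Figure D2:**
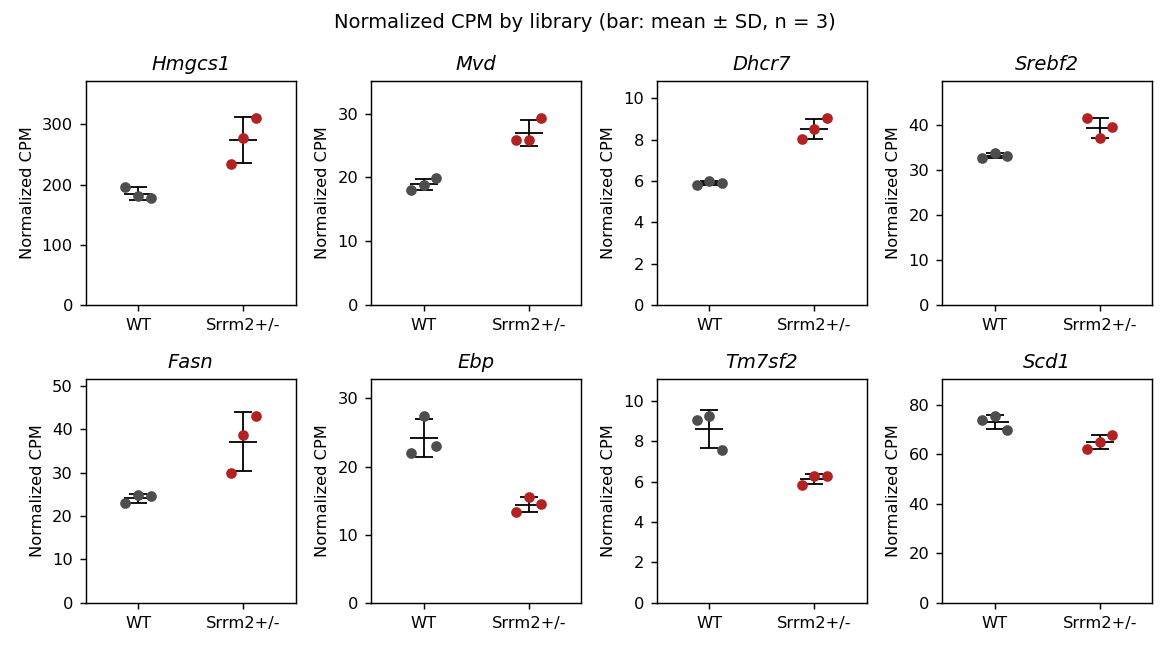
Normalized CPM in each of the 6 libraries is plotted on an axis from 0 for 8 of the genes, with the mean and SD of 3 libraries as bars. In Hmgcs1, Mvd, Dhcr7, Srebf2 and Fasn all Srrm2+/- points lie above the WT points, and in Ebp, Tm7sf2 and Scd1 all lie below them.

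Of the 4 regulatory and transfer genes, 1 rose, Srebf2, and the median log2 fold change was 0.11. Srebf2 (chromosome 15, 82147181 to 82205379, plus strand) encodes the SREBP factor that acts mainly on cholesterol synthesis and uptake. It gave 32.6, 33.7 and 33.0 CPM in WT and 41.4, 37.0 and 39.6 CPM in Srrm2+/- (edgeR log2 fold change 0.25 with an SE of 0.05, adjusted p 0.00817). The groups were separated, and Srebf2 was the sole member called higher in which Srrm2+/- replicate 1 was the highest library. Srebf1, whose product acts mainly on fatty acid genes, averaged 29.4 ± 0.714 CPM over WT and 31.4 ± 1.93 CPM over Srrm2+/- libraries (SD, n = 3; 95% interval of the log2 fold change -0.03 to 0.22, edgeR adjusted p 0.277). The table does not separate the transcript forms of Srebf1.

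Insig1, which retains SREBP in the endoplasmic reticulum and is itself a target of SREBP, gave 99.8, 98.6 and 92.2 CPM in WT and 90.2, 106 and 115 CPM in Srrm2+/-. The Srrm2+/- libraries lay on both sides of the WT libraries (edgeR log2 fold change 0.10 with an SE of 0.08, adjusted p 0.428). Without Srrm2+/- replicate 1 the difference was called (log2 fold change 0.19, edgeR adjusted p 0.0478). Stard4, a cytosolic carrier of sterol, averaged 27.4 ± 3.20 CPM over WT and 29.9 ± 3.20 CPM over Srrm2+/- libraries (SD, n = 3; edgeR adjusted p 0.428).

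The fatty acid group was divided. Of 6 genes, 2 rose, 1 fell and 3 did not pass the test, and the median log2 fold change was -0.01. Fasn (chromosome 11, 120805846 to 120824547, minus strand), the synthase that builds palmitate, gave 22.9, 24.8 and 24.6 CPM in WT and 29.8, 38.7 and 43.0 CPM in Srrm2+/-. This was the largest increase among the 28 genes, 54.1%, with separate groups and a wide spread within Srrm2+/- (edgeR log2 fold change 0.62 with an SE of 0.12, adjusted p 0.00460). Acaca, which makes the malonyl-CoA that Fasn uses, gave 88.2, 84.4 and 81.3 CPM in WT and 93.1, 105 and 109 CPM in Srrm2+/- (edgeR log2 fold change 0.27 with an SE of 0.06, adjusted p 0.0110).

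Of the genes before and after these steps, 1 fell and 3 did not pass the test. Acly, which splits citrate to supply acetyl-CoA, gave 397, 393 and 392 CPM in WT and 360, 380 and 414 CPM in Srrm2+/- (95% interval of the log2 fold change -0.15 to 0.09, edgeR adjusted p 0.695). Scd1 (chromosome 19, 44394455 to 44407879, minus strand), a desaturase that makes monounsaturated fatty acids, gave 73.6, 75.3 and 69.8 CPM in WT and 62.2, 64.9 and 67.8 CPM in Srrm2+/- (edgeR log2 fold change -0.17 with an SE of 0.05, adjusted p 0.0305). The gap between the Scd1 groups was small. Its call was lost without WT replicate 1 (edgeR adjusted p 0.0820), WT replicate 2 (0.109), Srrm2+/- replicate 1 (0.104) or Srrm2+/- replicate 2 (0.0890).

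Scd2 (chromosome 19, 44293674 to 44306864, plus strand), a desaturase of the same reaction encoded near Scd1, gave 181, 197 and 177 CPM in WT and 162, 184 and 212 CPM in Srrm2+/-. The groups overlapped, and the 95% interval of its log2 fold change ran from -0.19 to 0.21 (edgeR adjusted p 0.950). Elovl6, which lengthens palmitate to stearate, gave 136, 134 and 137 CPM in WT and 122, 133 and 130 CPM in Srrm2+/-. Its groups did not overlap, but the difference did not pass the test (95% interval -0.18 to 0.01, edgeR adjusted p 0.188).

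**Figure D3:**
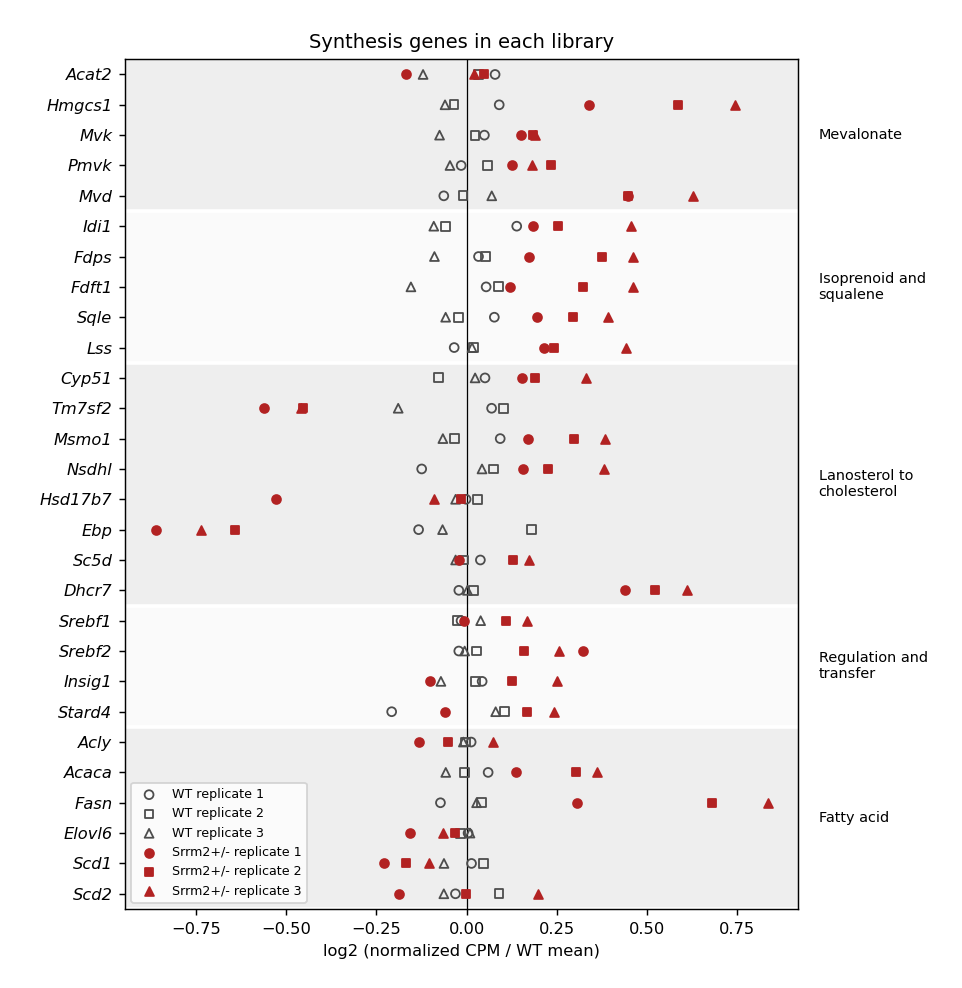
Each gene's normalized CPM is drawn as log2 of its ratio to the WT mean, for 3 WT libraries (open symbols) and 3 Srrm2+/- libraries (filled symbols). Srrm2+/- replicate 1 is the lowest filled symbol in 26 of 28 genes and replicate 3 the highest in 21 of 28.

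The Srrm2+/- libraries stood in nearly the same order across the genes. The median ratio of the 28 genes to their WT mean was 1.10 in Srrm2+/- replicate 1, 1.14 in replicate 2 and 1.19 in replicate 3, against 1.01, 1.02 and 0.965 in the WT libraries. Over the 16 genes that rose, the ratios were 1.13, 1.23 and 1.34. Replicate 1 was the lowest Srrm2+/- library for 26 of 28 genes, and for 34.7% of all genes tested. Replicate 3 was the highest for 21 of 28, and for 32.4% of all genes tested. The order thus took in genes that were not called, such as Acly, Scd2 and Insig1. WT libraries were less ordered, though not evenly spread. WT replicate 3 was the lowest WT library for 17 of 28 genes, and for 32.9% of all genes tested. WT replicate 2 was the highest for 14 of 28, and for 33.5% of all genes tested. Srrm2+/- replicate 1 had the largest total of all libraries (69933421 estimated counts) and Srrm2+/- replicate 3 the smallest of its group (61022915). Per the study's methods, the frozen batches of each line also differed in passage number. The part of depth or passage in this order was not tested.

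Normalized CPM was also summed over the members of each group, as a relative measure and not as an amount of RNA per cell. The mevalonate genes summed to 329 ± 14.7 CPM over WT and to 432 ± 45.5 CPM over Srrm2+/- libraries (SD, n = 3), and the genes from isopentenyl pyrophosphate to lanosterol to 336 ± 15.8 and 417 ± 38.7 CPM. The genes from lanosterol to cholesterol summed to 306 ± 6.73 and 340 ± 22.9 CPM. In these 3 groups every Srrm2+/- library exceeded every WT library. The regulatory and transfer genes summed to 187 ± 3.43 and 204 ± 16.7 CPM, with overlap. The fatty acid genes summed to 896 ± 14.1 and 903 ± 73.3 CPM, with Srrm2+/- libraries on both sides of WT. Abundant genes dominate such sums, as Hmgcs1 does in the first group and Acly in the last.

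Scaled by exon length to TPM, a level per length, the members differed widely in level within WT cells. Acly was the highest at 94.5 ± 6.58 TPM, followed by Hmgcs1 at 51.1 ± 5.81 TPM (SD, n = 3). Scd2 (42.7 ± 1.65 TPM), Cyp51 (39.8 ± 4.31 TPM) and Insig1 (39.7 ± 3.20 TPM) came next and did not differ beyond their spread. At the low end were Fasn (2.78 ± 0.0906 TPM), Hsd17b7 (2.74 ± 0.150 TPM), Tm7sf2 (2.47 ± 0.288 TPM) and Dhcr7 (1.29 ± 0.0640 TPM). Tm7sf2 overlapped Hsd17b7 and Fasn in level, while Dhcr7 stood below all of them. Below Acly and Hmgcs1 the order depends on the length used, also at the low end. With the longest coding transcript, Tm7sf2 stood at 6.32 ± 0.722 TPM (SD, n = 3), at rank 23 in place of 27 and well above Fasn and Hsd17b7. Fdps moved from rank 10 to rank 3 and Msmo1 from rank 13 to rank 4, while Acly, Hmgcs1 and Dhcr7 kept ranks 1, 2 and 28. Insig1, Cyp51 and Scd2 then stood at ranks 5, 6 and 7.

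Shared sequence bears on some members, because the counting divides reads among transcripts that hold the same bases. Of the 31-base words of Acat2, 43.7% also occur in Acat3, and of those of Acaca, 31.7% occur in the pseudogene Gm5182. For Fdps 24.6% occur in Gm43738 on the same strand, for Idi1 18.4% in the pseudogene Gm13502, for Fdft1 17.6% in Ctsb, which overlaps it on the opposite strand, for Hmgcs1 10.9% in the antisense gene Gm48342, and for Tm7sf2 10.7% in Vps51. Pmvk, Mvd, Nsdhl, Ebp, Acly and Fasn share none. With counts summed, Idi1 and Gm13502 together still rose (log2 fold change 0.31, edgeR adjusted p 0.0247), and Acat2 with Acat3 did not pass the test (-0.04, edgeR adjusted p 0.744).

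For Fdft1 and Tm7sf2 the sums lost the call. Ctsb, a lysosomal protease, fell from 53.5 to 45.6 CPM (log2 fold change -0.23, edgeR adjusted p 0.0462), and Fdft1 with Ctsb gave 0.08 (edgeR adjusted p 0.335). Vps51, a subunit of a vesicle tethering complex, rose from 16.8 to 20.2 CPM (0.27, edgeR adjusted p 0.00964), and Tm7sf2 with Vps51 gave 0.05 (edgeR adjusted p 0.471). Each partner moved against the member it shares exons with, and whether reads were divided differently in the 2 genotypes was not tested. Acaca, Fdps and Hmgcs1 were not summed, since Gm5182, Gm43738 and Gm48342 did not each match a single gene of the deposited counts. Their calls were thus not checked in this way.

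Genes around the routes of synthesis were read from lists of the same lipid pathways. Over all tested genes, the shares to set beside the counts of each list were 13.6% higher and 11.7% lower. The contrast of the lists with these shares was not tested. Among 9 genes that sense sterol or process SREBP, 2 rose and 2 fell, with a median log2 fold change of -0.009. Rnf145, a ubiquitin ligase of the endoplasmic reticulum, rose (edgeR log2 fold change 0.44 with an SE of 0.06, adjusted p 0.000522), and Erlin1, a membrane protein of the same compartment, fell (edgeR log2 fold change -0.39 with an SE of 0.06, adjusted p 0.00143). Without Srrm2+/- replicate 3, 1 gene of this list was lower.

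LXR factors are nuclear receptors that respond to oxidized sterols and raise sterol export. In the list of LXR factors, sterol export and esterification, of 7 genes tested, 4 fell and 1 rose, and the median was -0.20. Abca1, a sterol exporter and a classical LXR target, fell from 34.5 ± 0.913 to 21.0 ± 1.47 CPM (SD, n = 3; edgeR log2 fold change -0.71 with an SE of 0.06, adjusted p 5.05e-05). Abcg1, another exporter and LXR target, fell from 8.07 ± 1.21 to 4.35 ± 0.412 CPM (SD, n = 3; edgeR log2 fold change -0.89 with an SE of 0.13, adjusted p 0.00126). Soat1, which esterifies cholesterol for storage, rose from 60.7 ± 1.01 to 91.3 ± 4.26 CPM (SD, n = 3; edgeR log2 fold change 0.59 with an SE of 0.04, adjusted p 2.74e-05). These 3 genes kept their calls under all 14 alternatives, while the number of lower genes became 2 without WT replicate 2, WT replicate 3 or Srrm2+/- replicate 3.

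In sterol uptake and transport, 4 of 9 genes fell and 1 rose, with a median of -0.11. Gramd1a, a carrier of sterol from the plasma membrane, fell (edgeR log2 fold change -0.47 with an SE of 0.05, adjusted p 0.000335). Scarb1, a lipoprotein receptor, fell as well (edgeR log2 fold change -0.39 with an SE of 0.09, adjusted p 0.0123), though not without Srrm2+/- replicate 2 (edgeR adjusted p 0.0501), where the list held 2 lower genes. Gramd1c, the gene that rose, had few counts (0.377 ± 0.187 CPM over WT and 0.892 ± 0.156 CPM over Srrm2+/- libraries, SD, n = 3; edgeR log2 fold change 1.24 with an SE of 0.38, adjusted p 0.0407). Its call was kept only without WT replicate 2 when single libraries were left out.

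In the branch that spends isoprenoids on products other than sterols, 9 of 11 genes did not pass the test. In this list 1 gene rose (Coq2 of ubiquinone synthesis, edgeR log2 fold change 0.18 with an SE of 0.05, adjusted p 0.0202) and 1 fell (Ggps1, which makes geranylgeranyl pyrophosphate, edgeR log2 fold change -0.27 with an SE of 0.04, adjusted p 0.00233), and the median was -0.07. Coq2 was not called without WT replicate 1, WT replicate 3 or Srrm2+/- replicate 2 (highest edgeR adjusted p 0.0650). Without WT replicate 1, 3 genes of the list were lower.

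Fatty acid genes outside the 28 moved in both directions. Among 17 genes of supply, elongation and desaturation, 3 rose and 4 fell, with a median of -0.03. Over all tested genes, 13.6% were called higher and 11.7% lower. Elovl7, a fatty acid elongase, fell from 10.4 ± 1.29 to 4.23 ± 0.685 CPM (SD, n = 3; edgeR log2 fold change -1.30 with an SE of 0.14, adjusted p 0.000246). Slc25a1, which carries citrate out of mitochondria to Acly, fell from 85.6 ± 1.41 to 63.3 ± 3.69 CPM (SD, n = 3; edgeR log2 fold change -0.44 with an SE of 0.05, adjusted p 0.000263). Elovl1, another elongase, rose from 6.18 ± 0.321 to 8.47 ± 0.236 CPM (SD, n = 3; edgeR log2 fold change 0.46 with an SE of 0.08, adjusted p 0.00424).

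Of 10 genes of triglyceride synthesis and storage, 2 rose and 8 did not pass the test. Plin2, a coat protein of lipid droplets, rose from 14.5 ± 0.890 to 26.9 ± 1.85 CPM (SD, n = 3; edgeR log2 fold change 0.89 with an SE of 0.07, adjusted p 3.53e-05). Lpin2, a phosphatidate phosphatase, rose by less (edgeR log2 fold change 0.33 with an SE of 0.06, adjusted p 0.00489). Of 15 fatty acid oxidation genes, 2 rose and 3 fell, beside 13.6% higher and 11.7% lower of all tested genes. Without WT replicate 1, 5 oxidation genes were lower. Cpt1a, the gate of fatty acids into mitochondria, fell from 88.8 ± 2.30 to 57.1 ± 0.621 CPM (SD, n = 3; edgeR log2 fold change -0.64 with an SE of 0.04, adjusted p 7.09e-06), while Acadl, an acyl-CoA dehydrogenase, rose (edgeR log2 fold change 0.48 with an SE of 0.09, adjusted p 0.00506). Cpt2, which acts after Cpt1a, rose by 0.21 on the log2 scale (SE 0.06, edgeR adjusted p 0.0318), a call lost under 7 of 14 alternatives and kept only without WT replicate 2 when single libraries were left out.

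**Figure D4:**
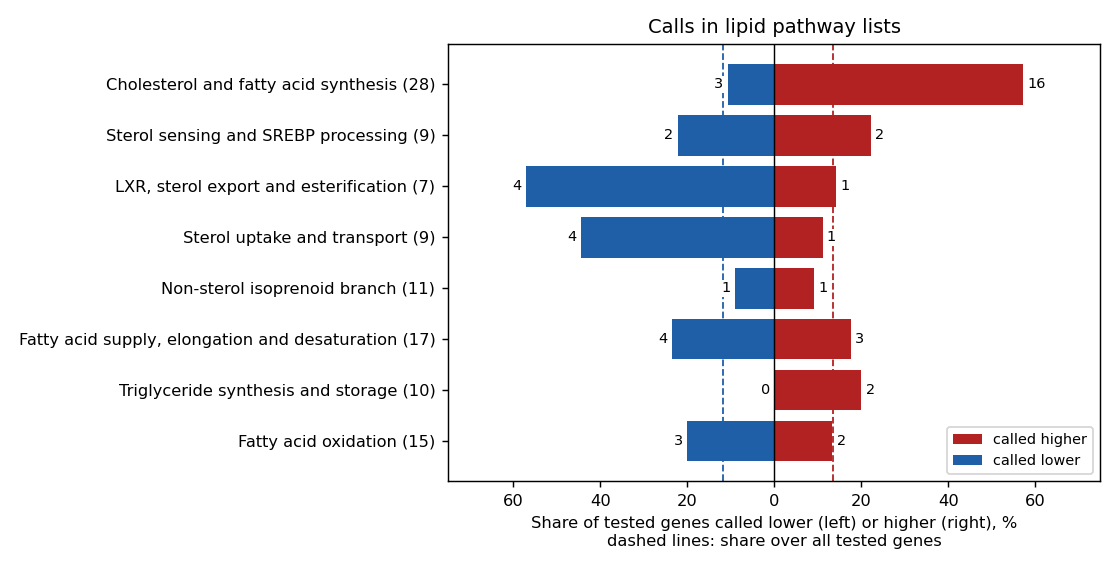
Bars give the share of each list's tested genes (number in brackets) called higher (right) or lower (left) in Srrm2+/-, with the number of genes at the bar ends, and dashed lines give the shares over all 18905 tested genes, 13.6% higher and 11.7% lower. The synthesis genes stand at 57.1% higher, while the LXR, export and esterification list has 4 of 7 genes lower.

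Markers of the labelled cell type were abundant in every library. For the calls below, the shares over all tested genes were 13.6% higher and 11.7% lower. The 8 mESC markers, which include Pou5f1 and Sox2, summed to 5058 to 5242 normalized CPM in WT and 4426 to 4538 CPM in Srrm2+/-, with 5 of 8 lower and 1 higher. Adipocyte markers summed to 0.0901 to 0.432 CPM in WT and 0.595 to 0.824 CPM in Srrm2+/-, with Adipoq and Plin1 at 0 counts in all libraries and 1 of 5 markers tested and not called. Fibroblast markers summed to 2.58 to 2.89 CPM in WT and 5.0 to 7.0 CPM in Srrm2+/-. Of these 6 markers, 4 were tested and 3 were higher, and Dcn had 0 counts in WT. Most of the WT sum is Thy1, which averaged 1.93 ± 0.173 CPM over WT and 1.19 ± 0.498 CPM over Srrm2+/- libraries (SD, n = 3) and did not pass the test, so the sum understates the other markers. Col1a2, a collagen chain, rose from 0.197 ± 0.0792 to 2.96 ± 0.769 CPM (SD, n = 3; 14.8-fold, edgeR adjusted p 4.51e-05), and Postn, a matrix protein, rose 7.14-fold (edgeR adjusted p 0.00196). These genes were singled out after their values were seen. Primitive or visceral endoderm markers summed to 2.02 to 2.26 and 2.55 to 2.72 CPM, with 5 of 10 tested and not called and Afp at 0 counts throughout. Trophoblast markers, most of whose sum is Tfap2c, which mESC also express, summed to 54.3 to 55.2 and 38.2 to 41.6 CPM. Of these 6 markers, 4 were tested, 2 were higher and 1 lower, and Cdx2 had 0 counts in WT. The part of these shifts in the changes of the synthesis genes was not tested.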

How the data were processed

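The authors pseudo-aligned paired total RNA reads with kallisto 0.46.1 to the GENCODE M24 mouse transcriptome and deposited unnormalized estimated counts for each gene. Whether kallisto was run with a strand setting is not given in the sources used here. Counts were rounded, and groups came from sample titles (3 libraries each). Spike-ins were added to the RNA and were not analysed here. Symbols and positions came from GENCODE M21 (GRCm38), which matched 42156 of 42450 identifiers. Genes past filterByExpr (minimum count 10, minimum total 15) were fitted with edgeR 4.0.16 in R 4.3.3 (TMM, glmQLFit, glmQLFTest, two-sided, genotype as the sole term). P-values were adjusted by Benjamini-Hochberg over all 18905 genes and called under 0.05. The SE is the absolute log2 fold change divided by the square root of F. P-values measure the spread between these batches of each line.

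The members and lists were chosen with earlier results of these data known. All 28 members were named, and of each other list the called genes with the 3 largest absolute log2 fold changes, except 1 that is not reported here. TPM used exon-union length, and shared sequence was counted in 31-base words of M21 transcripts. Alternatives were RLE and upper quartile scaling, DESeq2 1.42.0, limma 3.58.1 voom, other filters (at least 1 count in all; 1 CPM), the replicate block, normalization without short RNA, rRNA or mitochondrial genes, each library left out and stricter calls. Sums of genes that share sequence and coding transcript length were added after the data were seen. The fit was tested on simulated data.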

Additional observations from a re-analysis of the deposited data

How the results depend on the processing

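Among the 28 genes, 16 were called higher and 3 lower. The number higher was 16 with RLE or upper quartile scaling and with the 1 CPM filter, 15 with DESeq2, with the filter of 1 count and with short RNA, rRNA and mitochondrial genes removed, and 14 with limma voom. It ranged from 10 to 16 when single libraries were left out, with 10 without Srrm2+/- replicate 3, and the number lower ranged from 2 to 3. Calls over all genes, in either direction, were also fewer when single libraries were left out. They ranged from 3515 without Srrm2+/- replicate 3 to 4122 without WT replicate 1, against 4781 with all libraries. At an adjusted p under 0.01, 9 genes were higher and 2779 of all genes were called. In a separate setting, without that stricter p, an absolute log2 change of 1 or more was required of called genes. Then 0 members were higher, 0 were lower, and 1153 of all genes were called by edgeR. The median of the 28 stayed between 0.18 and 0.21. Of the 19 called genes, 12 kept the call under all 14 alternatives fitted to each gene and 7 lost it under at least 1. No called member changed direction under those 14.

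Single libraries set the sign of 3 genes that were not called: Acat2 turned without WT replicate 1 or Srrm2+/- replicate 1, Acly without Srrm2+/- replicate 1, and Scd2 without WT replicate 1, WT replicate 3 or Srrm2+/- replicate 3. Leaving out 1 library at a time, Acat2 ranged from -0.0853 to 0.0353, Acly from -0.0891 to 0.0133 and Scd2 from -0.0911 to 0.102 (log2 fold change). Summed with Vps51, Tm7sf2 turned from -0.49 to 0.0547, by construction from the higher counts of Vps51. Of 196 counts for the other lists, 172 stayed within 1.5 times, 21 were lower and 3 higher.

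With the replicate number as a block, 13 members were higher and 2 lower, and 4166 of all genes were called. Mvk (adjusted p 0.0866), Idi1 (0.0575), Fdft1 (0.0751) and Scd1 (0.0658) were not called, nor was Cpt2 (0.0599), and the block changed no other call of the genes named. The numbers did not pair the libraries, since deviations of same-numbered libraries from their group means correlated at -0.03, -0.03 and -0.03 and no library correlated best with its own number.

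The 7 called genes that lost the call had absolute log2 changes of 0.17 to 0.31. Clone, passage and genotype cannot be told apart, and division of reads between genes that share sequence bears on Acat2, Acaca, Fdft1, Fdps, Idi1, Hmgcs1 and Tm7sf2.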
